A study of Mus musculus with 6 samples.

Results

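Peaks of the transcription factor E2A near 44 genes of the Wnt signalling pathway are described here, in neural stem cells of the mouse embryo. The 44 genes are 10 Wnt ligands, 10 Frizzled receptors, 2 co-receptors, 2 R-spondin receptors, 4 secreted modulators, 4 feedback inhibitors, 3 Dishevelled genes, 4 genes of the β-catenin destruction complex, β-catenin itself and 4 TCF factors. They were chosen by name, and their peaks are all entries that the authors' annotation assigns to one of them as the nearest gene. They are 44 of the 21896 protein-coding genes in the gene table used, and they hold 536 of the 91185 peaks in the 5 deposited lists. E2A is encoded by Tcf3, and splicing of its transcript yields the proteins E12 and E47. Chromatin immunoprecipitation and sequencing (ChIP-seq) with an E2A antibody (sc-349X) was done on neural stem cells without E12 (E12-/-, here E12KO, 1 library), without E47 (E47-/-, here E47KO, 1 library) and of wild type (wt replicates 1, 2 and 3). All cells came from C57BL/6J embryos at E12.5, were kept dividing with FGF-2 and EGF (20 ng/ml each), and were fixed with EGS (1.5 mM) and then formaldehyde (1%). An input library of wild-type cells enters no comparison here.

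The lists hold 25229 peaks in E12KO, 22176 in E47KO and 6814, 12772 and 24194 in wt replicates 1, 2 and 3, so the wt lists differ more among themselves than the knockout lists differ from the longest of them. They give no read totals, so the depth is unknown. Whether the wt samples were separate embryos or cultures is not stated. Peak lists cannot check the knockouts or the cell type, because they show neither the lost exons nor expression. With 1 library for each knockout no test between genotypes was possible, and knockout values carry no replicate error.

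Wnt proteins bind Frizzled receptors together with the co-receptors Lrp5 and Lrp6, and Dishevelled relays the signal into the cell. In the absence of a Wnt, a complex of Axin, Apc and the kinase Gsk3b marks β-catenin for destruction. With a Wnt present, β-catenin enters the nucleus and joins TCF factors to turn on genes, among them several inhibitors that limit the pathway. In the embryonic forebrain the pathway is known for keeping progenitors dividing and for patterning the dorsal side. Tcf7l1, a member here, is also called TCF3 in older literature and is not the E2A gene. E proteins such as E2A bind the E-box, CANNTG, in which N is any base.

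Promoter sequences were available from RefSeq (GRCm38.p6) for 30 of the 44 genes, as 40 windows from 250 bases before to 50 bases after a start site. The following 5 windows are shown because they set promoters with a peak beside promoters without, with every CANNTG in capitals. All lie on the plus strand and are written along it. Dvl1 (chr4:155847152-155847451), a cytoplasmic relay of the signal, had a peak over this window in E12KO, E47KO and wt replicates 2 and 3. Fzd4 (chr7:89404116-89404415), a receptor, and Axin2 (chr11:108920099-108920398), a scaffold of the destruction complex and a widely used target gene of the pathway, had one in E12KO, E47KO and wt replicate 3. Dvl2 (chr11:70000342-70000641), a relative of Dvl1, and Nkd1 (chr8:88527383-88527682), an inhibitor that binds Dishevelled, had none in any list.
Dvl1: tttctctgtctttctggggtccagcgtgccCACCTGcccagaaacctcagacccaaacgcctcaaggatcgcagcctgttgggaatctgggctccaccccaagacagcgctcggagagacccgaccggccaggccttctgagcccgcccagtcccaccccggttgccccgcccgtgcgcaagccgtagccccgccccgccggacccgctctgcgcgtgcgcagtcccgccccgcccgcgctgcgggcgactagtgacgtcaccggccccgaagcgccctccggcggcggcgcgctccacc
Fzd4: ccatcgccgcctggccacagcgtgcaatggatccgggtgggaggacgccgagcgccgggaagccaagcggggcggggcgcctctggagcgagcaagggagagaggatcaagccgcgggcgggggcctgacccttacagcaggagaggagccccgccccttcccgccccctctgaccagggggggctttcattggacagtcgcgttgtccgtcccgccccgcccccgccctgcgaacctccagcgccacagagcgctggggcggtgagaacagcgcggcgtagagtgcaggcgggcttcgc
Axin2: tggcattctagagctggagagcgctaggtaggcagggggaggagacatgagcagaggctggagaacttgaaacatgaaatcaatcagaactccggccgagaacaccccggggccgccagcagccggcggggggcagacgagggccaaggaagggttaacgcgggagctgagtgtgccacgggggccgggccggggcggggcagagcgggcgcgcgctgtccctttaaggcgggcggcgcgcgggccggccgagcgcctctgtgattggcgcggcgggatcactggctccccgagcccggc
Dvl2: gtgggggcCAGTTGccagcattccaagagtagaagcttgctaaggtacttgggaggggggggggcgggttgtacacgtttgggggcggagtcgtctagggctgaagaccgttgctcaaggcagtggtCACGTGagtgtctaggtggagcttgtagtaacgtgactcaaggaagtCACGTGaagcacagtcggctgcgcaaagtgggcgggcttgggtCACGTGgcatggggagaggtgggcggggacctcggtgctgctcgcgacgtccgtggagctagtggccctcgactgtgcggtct
Nkd1: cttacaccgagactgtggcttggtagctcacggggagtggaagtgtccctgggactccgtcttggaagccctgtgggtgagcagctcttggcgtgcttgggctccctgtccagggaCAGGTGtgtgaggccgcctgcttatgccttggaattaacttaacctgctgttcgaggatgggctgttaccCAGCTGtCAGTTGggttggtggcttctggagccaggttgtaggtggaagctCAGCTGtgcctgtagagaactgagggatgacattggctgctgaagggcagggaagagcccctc
The Dvl1 window holds 1 E-box, a CACCTG, and those of Fzd4 and Axin2 hold none. The Dvl2 window holds 4, of which 3 read CACGTG, and the Nkd1 window holds 4, of which 2 read CAGCTG. No other of the 40 windows holds as many. Other windows without a peak, such as those of Sfrp2, Wnt1, Nkd2 and Dkk1, hold none. Those of Fzd9 and Wnt7a, which had a peak in some lists, hold 1 each. The 5 windows shown are thus not typical of the 40, whose mean was 0.825 CANNTG per window. The peaks are in mm9 and the windows in GRCm38, so they were related only through the distance from the start site. Of the 12 genes with a peak over a window in some list, 4 held a CANNTG in a window, against 14 of the 18 genes without such a peak. The 4 include Wnt11, whose CANNTG lies in only 1 of its windows. The Wnt11 promoter peaks span less than the gap between its windows, so they cannot cover both. Where a gene has several windows, the distance does not tell which of them a peak covers. Of the 40 windows, 23 (57.5%) held CANNTG, against 72.3% of 32851 RefSeq promoters of the same length. The narrower forms were searched on both strands. CAGCTG was in 5 of the 40 windows, against 16.3% of all promoters, and CAGGTG or CACCTG in 9 (22.5%), against 20.2%. Each of these is also a CANNTG. The TCF site letters, CTTTG followed by a pair of bases that are each A or T, on either strand, were in 17.5% of the windows, against 16.9% of all. Median G+C content was 71.2% in the 12 genes with a peak over the window and 64.3% in the 18 others, against 52.7% over all promoters, and its part in these counts was not tested.

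Of the 44 genes, 37 had a peak in at least 1 list, against 52.1% of protein-coding genes. The 7 without any were Wnt1 and Wnt3a, ligands of the neural tube and cortical hem, Dvl2, the scaffold Axin1, the inhibitors Dkk1 and Sfrp2, and the feedback inhibitor Nkd2. The genes held 150 peaks in E12KO, 124 in E47KO and 48, 70 and 144 in wt replicates 1, 2 and 3. As a share of each list this was 0.595% in E12KO, 0.559% in E47KO and 0.704%, 0.548% and 0.595% in the wt lists (0.616% ± 0.0802, SD, n = 3), so the shares of both knockouts lay inside the wt range. Wnt7b, a ligand of the neuroepithelium, had the most peaks in each list, with 15 in E12KO, 14 in E47KO and 6, 10 and 17 in the wt lists. Peak counts per gene followed list length, which can be seen for Tcf7l2, with 12, 11, 5, 8 and 12 peaks in the same order of lists. Among the exceptions was Wnt3, with 1 peak in E12KO, 1 in E47KO, 2 in wt replicate 1 and none in the other two wt lists.

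**Figure D1:**
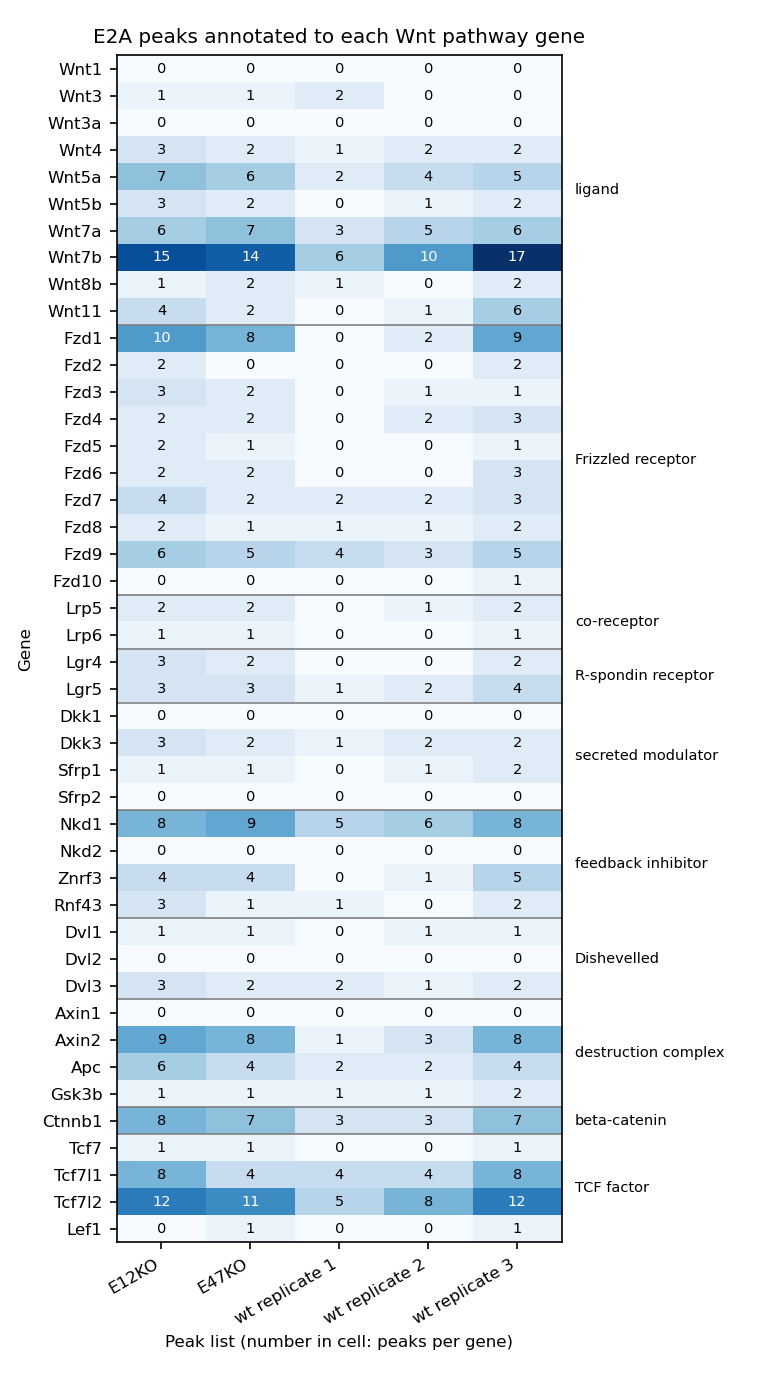
Number of E2A peaks annotated to each of the 44 Wnt pathway genes (rows, grouped by role) in the 5 lists (columns); darker cells hold more peaks. Wnt7b reaches 17 peaks in wt replicate 3, and 7 genes are at 0 in every list.

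The genes with a peak near the start site were a larger share of the pathway than of all protein-coding genes in each list. For the wt consensus regions this gap was smaller among genes that have a peak in some list, and it was not tested. Distances run to the start site that the authors assigned to each peak, and it can differ between regions of the same gene. A gene was called bound where a region found in at least 2 of the 3 wt lists (a consensus region) had its centre within 10 kb of its assigned start site. This held for 14 of the 44 genes (31.8%), against 16.6% of protein-coding genes. Among genes that any of the lists names, it held for 14 of 37 (37.8%), against 3628 of 11416 (31.78%). The 14 were the ligands Wnt4, Wnt5a and Wnt7b, the receptors Fzd9 and Lgr5, the modulators Dkk3, Nkd1 and Znrf3, Dvl1 and Dvl3, Apc and Gsk3b of the destruction complex, Ctnnb1 and Tcf7l2. In the single lists, 30 genes had a peak within 10 kb in E12KO (34.2% of all protein-coding genes did), 23 in E47KO (29%) and 11, 13 and 23 in wt replicates 1, 2 and 3 (9.3%, 15.4% and 30.9%). The E12KO count was above and the E47KO count equal to the highest wt count, and the all-gene percentages have E12KO above the wt lists and E47KO within their range. At any distance, 26 of the 44 genes had a consensus region, against 27.6% of protein-coding genes. Only 5 of the 14 genes were bound by a region in all 3 wt lists, namely Wnt5a, Fzd9, Dvl3, Apc and Gsk3b.

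**Figure D2:**
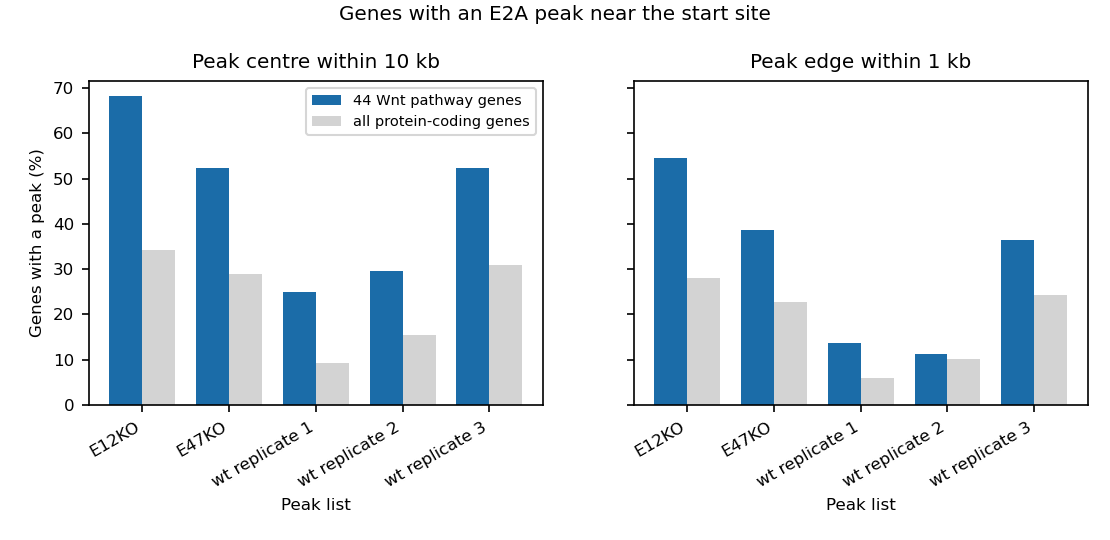
Share of genes (%) with a peak centre within 10 kb (left) or a peak edge within 1 kb (right) of the start site in each list, for the 44 Wnt pathway genes (blue) and all protein-coding genes (grey). The blue bar is the higher in each pair, and the bars of the shortest list, wt replicate 1, reach 11 genes within 10 kb and 6 within 1 kb.

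At promoters, taken as a peak edge within 1 kb of the start site, 24 genes had a peak in E12KO (28.1% of all protein-coding genes), 17 in E47KO (22.8%) and 6, 5 and 16 in wt replicates 1, 2 and 3 (6.02%, 10.2% and 24.4%). The 17 of E47KO and the 16 of wt replicate 3 were all among the 24 of E12KO. The 7 genes in E12KO and not in E47KO were thus 7 of 24, and over all protein-coding genes 29.6% of the 6153 with a promoter peak in E12KO lacked one in E47KO. A promoter region in at least 2 wt lists was found for 7 genes, against 11.3% of protein-coding genes: Lgr5, Dvl1, Dvl3, Apc, Gsk3b, Ctnnb1 and Tcf7l2. None is a Wnt ligand or a Frizzled receptor, and 5 of them act inside the cell between the receptor and the nucleus. The 1 kb limit decides some of these cases. The Wnt4 consensus region, centred 1.17 kb from the start site, came within 1 kb in E12KO and E47KO alone. A Dvl3 region, centred at 1.13 kb, came within 1 kb in E12KO and wt replicates 1 and 3. Apc and Gsk3b were the 2 genes with a promoter peak in every list. As a share of peaks, promoters as the authors annotated them were less frequent in this pathway than in the lists as a whole. They made up 27 of the genes' 150 peaks in E12KO (18.0%), 19 of 124 in E47KO (15.3%) and 6 of 48, 5 of 70 and 17 of 144 in wt replicates 1, 2 and 3 (10.5% ± 2.91, SD, n = 3). Over all peaks the shares were 27.5% in E12KO, 25.3% in E47KO and 22.5% ± 2.75 in the wt lists, so the pathway's share was the lower in each list. Intergenic peaks were more frequent, at 40.7% in E12KO, 41.1% in E47KO and 62.5%, 51.4% and 43.8% in the wt lists, against 33.4%, 34.2% and 35.2%, 38.7% and 34.2% of all peaks.

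The ligands held 24 of the 74 consensus regions of the pathway, and 9 of these were in all 5 lists. Of the 10 ligand genes, 8 had a peak, 7 had a consensus region and 3 were bound within 10 kb, none of them by a promoter region in 2 wt lists. Over all protein-coding genes these shares were 52.1%, 27.6%, 16.6% and, for the promoter region, 11.3%. The strongest ligand region lay 2.58 kb upstream of Wnt5a, a ligand known for signalling apart from β-catenin, at chr14:29315652-29316416 (mm9, as are the peak positions that follow). Its peak was 1137 bp wide in E12KO, 711 bp in E47KO and 667, 482 and 729 bp in wt replicates 1, 2 and 3. The E12KO peak was thus the widest, and the E47KO peak lay within the wt widths. Over all peaks, too, the median width was largest in E12KO (616 bp). Scores exist in wt replicate 1 alone, where the authors' fold enrichment over background was 23.4 at this site. In the knockouts, Wnt5a also had a promoter peak at chr14:29317281-29318658 that no wt list held, 1378 bp wide in E12KO and 465 bp in E47KO.

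Wnt7b had 10 consensus regions, the most of any of the 44 genes, and all but 1 of them lay more than 10 kb from its start site. Of the 10, 8 fell in 2 groups, with 4 regions from 29.2 to 44.2 kb upstream and 4 from 79.9 to 116 kb downstream. The other 2 lay in intron 1, 8.41 and 12.9 kb from the start site assigned to them. The strongest of the 10, at chr15:85291541-85292836, lay within the neighbouring gene Atxn10 at 116 kb, with a fold enrichment of 22.9. Its peak was 1665 bp wide in E12KO, 1611 bp in E47KO and 542, 871 and 1296 bp in the wt lists, so both knockout peaks were wider than every wt peak. Regions at 79.9 kb downstream (16.4-fold), at 32.0 kb upstream (13.2-fold) and at 44.2 kb upstream (13.8-fold) were also in all 5 lists. At the Wnt7b promoter itself, E12KO and wt replicate 3 had a peak and the other 3 lists had none.

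The other ligands had fewer regions. Wnt7a, a close relative of Wnt7b, had 5 consensus regions, all beyond 10 kb, and the pair at 63.4 and 65.2 kb downstream was in all 5 lists with folds of 6.60 and 9.17. Its promoter carried a peak in E12KO (1029 bp), E47KO (1027 bp) and wt replicate 1 (376 bp, 3.33-fold, the lowest fold of the pathway), and none in wt replicates 2 and 3. Wnt4 had a region 1.17 kb downstream of its start site in 4 lists, wt replicate 1 excepted, and another at 24.3 kb in all 5 lists (8.04-fold). Wnt5b, Wnt8b and Wnt11 each had 1 consensus region, at 102, 21.7 and 37.5 kb. Wnt3 had no consensus region, and its 2 peaks in wt replicate 1, with folds of 8.54 and 9.61, were missing from the other wt lists.

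Every Frizzled gene had a peak in some list, against 52.1% of protein-coding genes. Of the 10, Fzd9 alone was bound within 10 kb by a consensus region, against 16.6% of protein-coding genes. Fzd9 had 4 consensus regions in a row upstream, at 2.98, 7.86, 13.4 and 20.9 kb. The outermost, chr5:135747443-135748374, and the innermost, chr5:135729482-135730451, were in all 5 lists, with folds of 22.3 and 18.1. The outermost peak was 752 bp wide in E12KO, 573 bp in E47KO and 644, 413 and 902 bp in the wt lists, so both knockout widths lay within the wt range. The region at 13.4 kb, chr5:135740076-135740930, was in E47KO and wt replicates 2 and 3 and was the one consensus region of the pathway missing from E12KO alone. Fzd7, a receptor of neural progenitors, had 2 regions in all 5 lists, 58.8 and 81.3 kb upstream, with folds of 8.87 and 6.38. Fzd1, Fzd3, Fzd4 and Fzd8 had consensus regions only beyond 10 kb, and Fzd2, Fzd5, Fzd6 and Fzd10 had none.

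Frizzled promoters had peaks mainly in the long lists, as did the promoters of all protein-coding genes. Over all these genes, 28.1% had a promoter peak in E12KO, 22.8% in E47KO and 6.02%, 10.2% and 24.4% in the wt lists. Among the 10 receptors, 6 had a promoter peak in E12KO (Fzd1, Fzd2, Fzd3, Fzd4, Fzd7 and Fzd9), 3 in E47KO (Fzd3, Fzd4 and Fzd9) and 0, 0 and 2 in wt replicates 1, 2 and 3 (Fzd2 and Fzd4 in wt replicate 3). At the Fzd3 promoter, chr14:65880118-65881643, the peak was 1526 bp wide in E12KO and 979 bp in E47KO, with no peak in any wt list. At the Fzd9 promoter, chr5:135726288-135727076, it was 789 bp in E12KO and 285 bp in E47KO, again with none in wt. With 1 library for each knockout, a difference between knockout and wt cells and one between single libraries cannot be told apart.

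The co-receptors Lrp5 and Lrp6 each had a promoter peak in E12KO, E47KO and wt replicate 3 and no consensus region. The Lrp6 peak was 862 bp wide in E12KO, 551 bp in E47KO and 744 bp in wt replicate 3. Lgr5, which binds R-spondins and so raises the number of Frizzled receptors at the surface, had a promoter region at chr10:115024626-115025068, 953 bp in E12KO, 1213 bp in E47KO and 312 and 406 bp in wt replicates 2 and 3. Both knockout peaks were the wider ones there, and wt replicate 1 had none. An intronic Lgr5 region at 16.3 kb was in all 5 lists (4.51-fold). Lgr4, its relative, had a promoter region in both knockouts, 932 bp in E12KO and 270 bp in E47KO, and none in wt.

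Among the inhibitors, Nkd1 stood out by number, with 7 consensus regions, while its promoter had no peak in any list. Of the 7, 4 were in all 5 lists, 73.6, 67.0 and 26.0 kb upstream and 41.9 kb downstream in intron 3. The strongest was chr8:90977884-90978622 at 67.0 kb, with a fold of 18.2 and peaks of 615 bp in E12KO, 767 bp in E47KO and 579, 626 and 660 bp in the wt lists. The E12KO width lay within the wt widths, and the E47KO peak was the widest. Znrf3, a ubiquitin ligase that removes Frizzled from the surface, had 1 consensus region, within its own intron 1. It lay 9.73 kb upstream of a start site further along the gene, through which Znrf3 counts as bound. At the promoter of its other start site, far from this region, Znrf3 had peaks in E12KO, E47KO and wt replicate 3. Rnf43, a relative of Znrf3, had peaks and no consensus region. Dkk3, a divergent member of the Dickkopf family, had a region 21.5 kb upstream in all 5 lists (chr7:119323766-119324313, 12.46-fold). Another lay in intron 3, 2.51 kb downstream of a start site further along the gene, in every list but wt replicate 1. Sfrp1, a secreted protein that binds Wnts, had 1 consensus region at 96.4 kb.

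The strongest region of the whole pathway was at Dvl3, which relays the signal from the receptor. It lay 5.65 kb downstream of the start site at chr16:20522390-20523298, where the authors' annotation gives a 5′ UTR, with a fold of 26.6 and a pileup signal of 95 at the summit in wt replicate 1. Its peak was 925 bp wide in E12KO, 706 bp in E47KO and 751, 878 and 754 bp in the wt lists, with E12KO the widest and E47KO the narrowest. A second Dvl3 region 1.13 kb from the start site was in all lists except wt replicate 2. Dvl1 had its promoter region, chr4:155221244-155221688, as its sole region, 826 bp in E12KO, 899 bp in E47KO and 307 and 445 bp in wt replicates 2 and 3. Both knockout peaks were wider than the wt peaks, and wt replicate 1 had none.

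In the destruction complex, Apc and Gsk3b were covered at the promoter in every list. The Gsk3b peak, chr16:38088052-38089189, was 1393 bp wide in E12KO, 1104 bp in E47KO and 747, 513 and 768 bp in wt replicates 1, 2 and 3 (5.51-fold), and the knockout peaks were the wider. The Apc promoter peak was 1301 bp in E12KO, 1869 bp in E47KO and 483, 949 and 1532 bp in the wt lists (6.28-fold), and there E12KO lay within the wt widths. Apc also had a region 88.3 kb upstream in all 5 lists, with a fold of 16.6. Axin2 had its strongest region 89.3 kb downstream of a start site further along the gene than its promoter peak (11.9-fold, all 5 lists). At its promoter a broad peak covered 2551 bp in E12KO, 1439 bp in E47KO and 1542 bp in wt replicate 3, and wt replicates 1 and 2 had none. Ctnnb1, which encodes β-catenin, had 5 consensus regions. The strongest, chr9:120668872-120669326, lay 173 kb upstream with a fold of 19.1 and was narrow in every list, at 379 bp in E12KO, 464 bp in E47KO and 455, 327 and 411 bp in the wt lists. Its promoter region, 0.854 kb from the start site, was in E12KO, E47KO and wt replicates 1 and 3, and a pair of regions lay in introns 33 and 35 of the neighbour Ulk4.

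The TCF factors divided by gene. Tcf7l2 had 8 consensus regions and Tcf7l1 had 4, while Tcf7 and Lef1 had none. Tcf7l2 was marked at its promoter, chr19:55815967-55816363, with peaks of 712 bp in E12KO, 770 bp in E47KO and 346 and 397 bp in wt replicates 2 and 3, and again 1.60 kb downstream. Its strongest consensus region, chr19:56103627-56104971, had a fold of 7.58. It lay 112 kb downstream of a start site further along the gene, and so farther from the promoter above. A further 2 regions lay in intron 7 of the upstream gene Vti1a. All 4 consensus regions of Tcf7l1, which acts mainly as a repressor, lay in its intron 3, from 19.9 to 77.2 kb from the start site. Lef1 had peaks in E47KO and wt replicate 3 alone, in intron 3, and Tcf7 had 1 peak upstream of its start site in E12KO, E47KO and wt replicate 3.

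The pathway's regions lay farther from start sites than regions in general. Of the 74 consensus regions, 18 (24.3%) lay within 10 kb, against 37.9% of all 12322 consensus regions. Another 25 (33.8%) lay from 10 to 50 kb away, against 30.6%, and 18 (24.3%) from 50 to 100 kb, against 13.6%. Beyond 100 kb the shares were alike, at 17.6% and 17.9%. The median distance was 34871 bp for the pathway and 21307 bp for all consensus regions. Upstream and downstream sites were 34 and 40 in number. The nearest gene is the authors' assignment and shows no contact between a distal region and that gene. Of the bound genes, Znrf3 (9.73 kb), Nkd1 (8.76 kb) and Wnt7b (8.41 kb) have their nearest consensus region just inside the 10 kb limit. The next region outside it belonged to Wnt7b (12.9 kb), which was bound already. These distances run from the assigned start sites, which for Znrf3 and Wnt7b were not those of their promoter peaks.

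**Figure D3:**
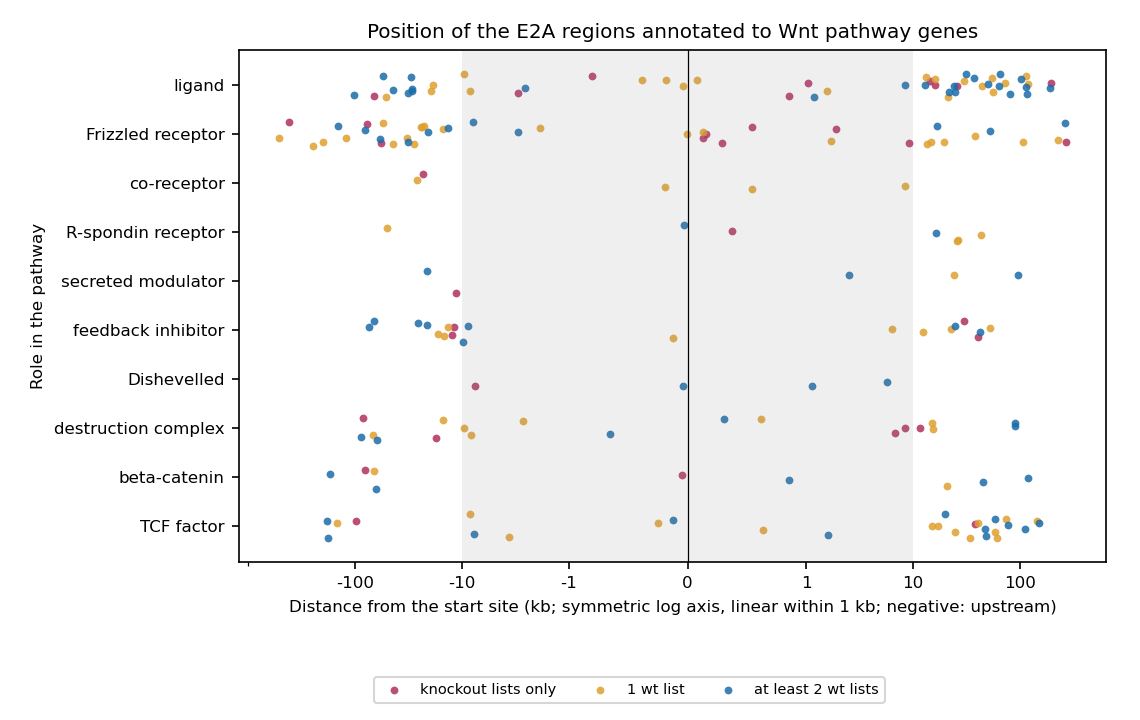
Distance of each of the 193 merged E2A regions from the start site assigned to it (kb, symmetric log axis, negative upstream), by role. Red points are in knockout lists only, yellow points in 1 wt list and blue points in at least 2 wt lists. The grey band marks 10 kb on either side, which holds 18 of the 74 blue points.

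Nearly all wt consensus regions of the pathway were found again in cells without E12 or without E47. E12KO held a peak at 72 of the 74 (97.3%, exact 95% interval 90.6 to 99.7), against 96.6% of all consensus regions, and E47KO at 69 (93.2%, 84.9 to 97.8), against 93.5%. The intervals cover counting error only, and both shares are near the background of all regions. The intervals also treat regions as independent. Yet 4 E12KO and 2 E47KO peaks of the pathway each lay over 2 or more wt regions, so a broad peak can count more than once. Regions shared by a pair of wt lists were also looked up in the wt list left out. In the pathway, E12KO held 98.5%, 97.4% and 100% and E47KO held 93.9%, 94.7% and 96.7% of the regions of the other two wt lists with wt replicates 1, 2 and 3 left out in turn. The left-out wt list held 45.5%, 78.9% and 100% (74.8% ± 27.5, SD, n = 3), so both knockout lists held at least as many of them as wt replicates 1 and 2 did, and E47KO held fewer than wt replicate 3. These shares go with list length. When each list was reduced to its 6814 widest peaks, 63.6% of 33 consensus regions had a peak in E12KO and 69.7% in E47KO, against 68.3% and 72.6% of all such regions. In the comparison with a left-out wt list at this length, E12KO held 76.2%, E47KO 78.7% and the left-out wt list 75.2% ± 12.6 (SD, n = 3) on average, so the knockouts lay within the wt spread.

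**Figure D4:**
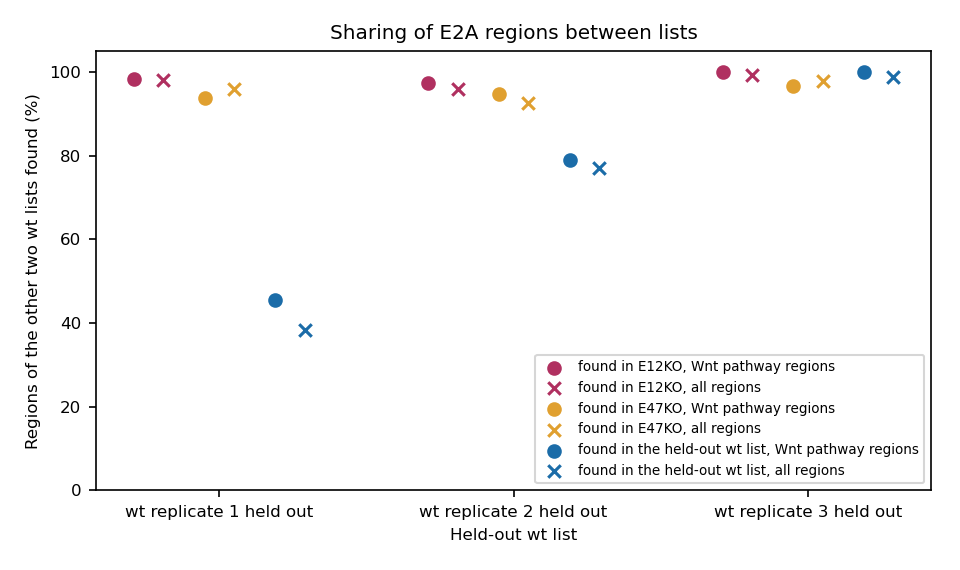
Share (%) of the regions common to a pair of wt lists that were found in E12KO, in E47KO and in the wt list left out, for Wnt pathway regions (circles) and all regions (crosses). The knockout points lie between 92.6% and 100%, and the left-out wt list ranges from 38.4% to 100%.

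The few consensus regions missing from a knockout can be named. A region 63.9 kb upstream of Ctnnb1, chr9:120778250-120778870, was missing from both; it was 621 bp wide in wt replicate 1 (8.03-fold), 243 bp in wt replicate 3 and not listed in wt replicate 2. E12KO alone lacked the Fzd9 region described above. E47KO alone lacked 4: 52.3 kb downstream of Fzd4 (chr7:96604994-96605279), 90.6 kb downstream of Axin2 (chr11:108895260-108895758), in intron 3 of Tcf7l1 (chr6:72718734-72719195) and in intron 4 of Tcf7l2 (chr19:55912486-55912892). The Tcf7l1 region was the only one of the 6 that all 3 wt lists held, with peaks of 368, 209 and 458 bp, 428 bp in E12KO and a fold of 4.64. The other 5 were also absent from 1 of the wt lists.

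Of the 193 regions over all lists, 36 were in knockout lists and no wt list, with 19 in E12KO alone, 9 in E47KO alone and 8 in both. These make up 9.84%, 4.66% and 4.15% of the pathway's regions, against 9.56%, 5.40% and 4.35% of all regions. Wt replicate 3 alone had 16 (8.29%, against 7.61%). The 8 in both knockouts were the promoters of Wnt5a, Fzd3, Fzd9 and Lgr4 given above, and distal regions assigned to Fzd1 (in intron 13 of Cdk14), Fzd5 (in intron 7 of Plekhm3), Apc (83.6 kb upstream) and Ctnnb1 (80.7 kb upstream). Of the 36, 9 lay at promoters, 8 of them with a peak in E12KO and 5 with one in E47KO. The promoter share of all knockout-only regions is not given here. Over all peaks the promoter share was 27.5% in E12KO and 25.3% in E47KO. At the 29 regions common to all 5 lists the median peak width was the largest in E12KO, at 1066 bp there, 809 bp in E47KO and 516, 543 and 777 bp in wt replicates 1, 2 and 3. Over all peaks, E12KO also had the largest median, at 616 bp, against 550.0 bp in E47KO and 432.5, 420.0 and 549 bp in the wt lists, so E12KO, followed by E47KO, came out widest over all peaks too. Width is not a measure of binding strength.

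Only wt replicate 1 has scores, so strength could be ranked in that list alone and not compared with the knockouts. The 48 pathway peaks had a median fold of 8.29, against 7.48 over all 6814 peaks, and ran from 3.33 to 26.6 within a full range of 1.69 to 106. Of the 48, 7 (14.6%) were among the top 10% of the list, with folds of at least 17.3. They belonged to Dvl3, Wnt5a, Wnt7b, Fzd9 (2 peaks), Ctnnb1 and Nkd1. By role, the median fold was 9.52 for ligands (14 regions), 8.87 for Frizzled receptors (7), 9.68 for feedback inhibitors (6), 9.07 for the destruction complex (4) and 6.05 for TCF factors (9). The roles with 1 to 3 regions had medians of 16.9 for Dishevelled (2), 12.46 for secreted modulators (1), 8.03 for β-catenin (3) and 4.51 for R-spondin receptors (1), and the co-receptors had no scored region. Regions in all 5 lists had a median fold of 9.43 (29 regions) and those in fewer lists 6.95 (18 regions).

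**Figure D5:**
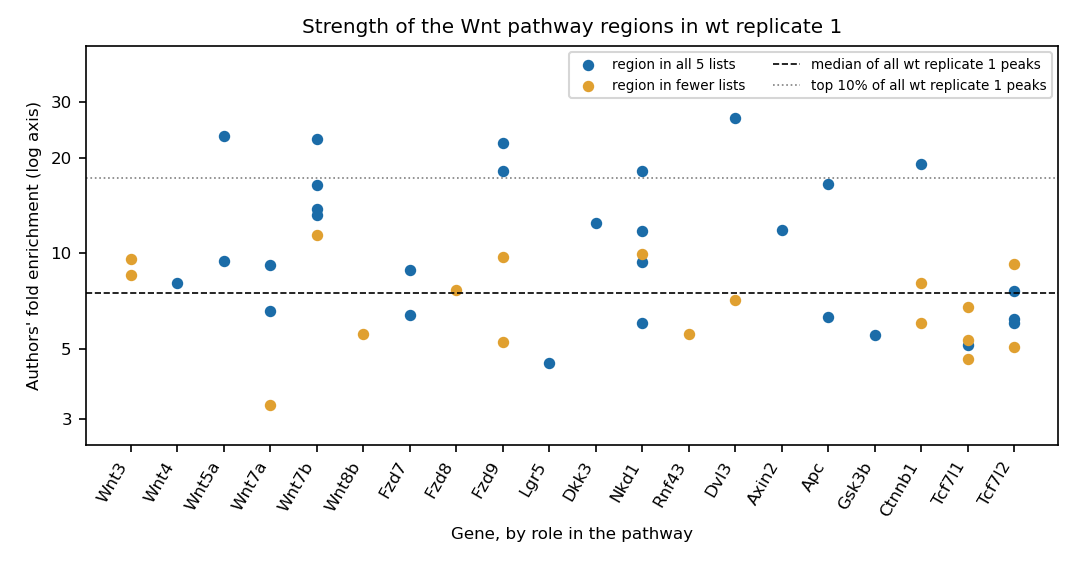
The authors' fold enrichment (log axis) of each Wnt pathway region with a peak in wt replicate 1, by gene; blue regions are in all 5 lists and yellow regions in fewer. The dashed line marks the median of all peaks of that list, 7.48, the dotted line its top 10%, 17.3, and Dvl3 is the highest at 26.6.

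A further 56 Wnt pathway genes outside the 44 were examined in the same way. Of these, 19 were bound within 10 kb (33.9%, against 16.6% of protein-coding genes) and 45 had a peak in some list (against 52.1%). The 19 were among these 45, and 31.78% of the protein-coding genes that any list names were bound. A peak within 10 kb was found for 33 in E12KO, 31 in E47KO and 14, 19 and 26 in the wt lists. Over all protein-coding genes the shares were 34.2% in E12KO, 29% in E47KO and 9.3%, 15.4% and 30.9% in the wt lists. The strongest sites were at Celsr1, a cadherin of planar cell polarity (49.6-fold, in every list except wt replicate 2), Draxin, a secreted guidance factor that also inhibits Wnt signalling (26.5-fold), the ligand Wnt10a (20.6-fold) and Bcl9l, a cofactor of β-catenin (9.40-fold). Promoter regions were found at Vangl2 and Ptk7, both of planar cell polarity (7.48- and 3.52-fold), at Bcl9 (6.65-fold), at Btrc, which recognises marked β-catenin (5.82-fold), and at Apc2, a relative of Apc (5.87-fold). All 9 were also listed in E12KO and E47KO. The other 10 bound genes, whose regions within 10 kb have no score, were Celsr3, Csnk1d, Csnk1e, Daam1, Frzb, Invs, Prickle1, Sfrp4, Vangl1 and Wnt2b.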

How the data were processed

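E2A ChIP-seq peak lists of 5 libraries (1 E12KO, 1 E47KO, 3 wt) were analysed. BWA 0.7.13, Picard 1.119 and MACS2 2.1.0 with mm9 are named in the submitters' processing notes. Their settings were not given in the sources used here. File labels give wt replicate 1 another false discovery rate than the other lists, which can change list lengths and so every overlap. Lists were deposited per library with peak positions, annotated feature, nearest gene and start-site distance, per their headers. A score per peak exists in wt replicate 1 alone: its deposited table holds a −log10 p and −log10 q, a fold enrichment (ratio to background) and a pileup signal (coverage at the summit) from the authors' caller.

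The 44 genes were matched by symbol and gene ID, all 44 in the RefSeq gene table (GRCm38.p6, used for names and gene class). The genes, gene lists and comparisons were chosen with earlier results of these data known. Distances run from the peak centre to the start site that the authors assigned, as the deposited distances use another peak edge in wt replicate 1. Wt peaks overlapping by at least 1 bp were merged, and regions in at least 2 of 3 wt lists were consensus regions. Shares carry exact (Clopper-Pearson) 95% intervals, which cover counting error only. No test between genotypes was made. Merging and overlap counting were checked on simulated peaks. Python 3.11.15, pandas 2.3.3, numpy 2.4.6, scipy 1.17.1 and matplotlib 3.10.9 were used.

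Described in full were genes with a promoter region in at least 2 wt lists, the strongest region by −log10 q of each role and the 10 strongest of all, genes with a consensus region missing from a knockout or a region in both knockouts and no wt list, the 3 genes with most consensus regions, and the strongest of the 56 other pathway genes. That last rule asked for 10 genes, and 9 have a score at a consensus region within 10 kb. Alternatives covered the distance limit, the number of wt lists required, the overlap rule, peak width and strength, equal list lengths and leaving out each wt list.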

Additional observations from a re-analysis of the deposited data

How the results depend on the processing

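No paired analysis was possible because each knockout has 1 library and shares no pair of replicate numbers with the wt group. The count of 14 bound genes became 26 with no distance limit, 5 with regions required in all 3 wt lists, 26 with any wt list accepted, 7 with equal numbers of the widest peaks, and 5 to 12 without 1 wt replicate (7 without the second and 5 without the third). The percentage of all protein-coding genes moved with it, to 27.6%, 5.37%, 33.1% and 8.86% under the first 4 settings and to 14.4%, 7.70% and 5.22% when wt replicates 1, 2 and 3 were left out. The 74 consensus regions became 30 in all 3 wt lists, 157 in any, 33 among the widest peaks and 30 to 66 without 1 wt replicate. Their share with a peak in E12KO became 100%, 80.9% and 63.6% under the first 3 of these, and 97.4 to 100% without 1 wt replicate. Over all consensus regions the E12KO share moved alike, to 99.6%, 77.8% and 68.3%, and 95.9 to 99.3% without 1 wt replicate. The share in E47KO became 69.4% with any wt list and 69.7% among the widest peaks, and was 93.9 to 96.7% without 1 wt replicate. Over all consensus regions the E47KO share was 70.7%, 72.6% and 92.6 to 97.9% under these settings. The 19 of 56 other pathway genes became 30 with no distance limit, 7 with all 3 wt lists and 7 to 17 without 1 wt replicate, settings chosen after seeing the data. The percentages of all protein-coding genes under these settings are those given above. Leaving out a wt list requires a region in both remaining ones, so lower counts follow from the rule. The promoter share in wt lists (9.47 to 12.2% without 1 wt replicate) and the share held by the left-out wt list stayed within 1 SD. The lists give no depth, which limits what a missing peak shows.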

Other observations

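In the deposited table of wt replicate 1, intron numbers of plus-strand genes matched those of overlapping peaks in the other lists in 1776 of 1780 cases, and those of minus-strand genes in 93 of 1612. For the minus-strand gene Tcf7l1 that table gives intron 10 where the other lists give intron 3, so intron numbers are quoted from the other lists. The deposited distance was the one to the nearest peak edge for 12.49% of peaks in wt replicate 1 and 100% in the other 4 lists, and its promoter label reached 1672 bp from the start site, against at most 999 bp in the others. No merged region of the 44 genes held peaks that the lists assigned to different genes.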
